A study of Mus musculus with 6 samples.

Results

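The chemokines and the chemokine receptors were examined in mouse CT26 tumors that had grown with or without the kinase inhibitor H89. The members were chosen as genes whose symbol begins with Ccl, Cxcl, Xcl, Cx3cl, Ccr, Cxcr, Xcr, Cx3cr or Ackr followed by a digit, together with Ccrl2. The members described are 60 of the 23557 genes in the deposited table, 37 chemokines and 23 receptors. CT26 is a colorectal carcinoma line of the BALB/c strain, and 500000 cells were placed under the skin of the right flank of female BALB/c mice 7 weeks old. The control group (NaCl) received intraperitoneal NaCl, and the treated group (H89) received intraperitoneal H89, an inhibitor of protein kinase A and of other kinases, at a dose of 10 mg/kg, on the same schedule of 2 injections a week from day 6. Tumors were removed on day 14, and the total RNA of 3 tumors per group, 1 tumor per mouse, was sequenced on the BGISEQ-500 platform. All 6 tumors came from 1 cell line in 1 host strain, and the host's own leukocytes, fibroblasts and vessels contribute to the RNA.

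Chemokines are small secreted proteins that guide leukocytes along concentration gradients by binding G protein-coupled receptors on their surface. Inflammatory chemokines are induced in tumors by interferons, tumor necrosis factor or NF-kappa B signalling, whereas homeostatic chemokines place cells within lymphoid organs and tissues. Most receptors mark particular leukocytes, such as monocytes (CCR2), activated T cells (CXCR3) or cross-presenting dendritic cells (XCR1), while atypical receptors bind or clear chemokines without classical G protein signalling.

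The deposited values were estimated read counts, and the totals lay between 27067349 and 31958793 per tumor. Levels are given here as counts per 1000000 (CPM), with library sizes scaled by the TMM method, and tumors are numbered as in the labels. A gene was tested if its mean was at least 0.5 CPM over the 6 tumors, which held for 13118 genes. For colon epithelium, 5 of 9 marker genes passed that filter, and their summed level over the whole list was 109.8 to 124 CPM in NaCl and 77.2 to 92.9 CPM in H89-treated tumors. Most of that sum came from Krt20, and the defining markers Epcam, Cdx1, Cdx2 and Vil1 lay under the filter. In bulk tumors, fewer cells of a type and less RNA per cell cannot be told apart.

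Chemokine and receptor transcripts were more often higher than lower in H89-treated tumors, but none of the individual differences passed the adjusted threshold of the main test. Of the 60 members, 42 passed the filter, 28 of 37 chemokines and 14 of 23 receptors. Under edgeR's quasi-likelihood test with Benjamini-Hochberg adjustment over all 13118 genes, 0 of the 42 had an adjusted p under 0.05, against 1.59% of all genes tested. At an unadjusted p under 0.05 there were 15 of 42 (35.7%), of which 13 were higher and 2 lower, against 25.0% of all genes tested (13.1% higher and 11.9% lower). Among the 13 higher, Xcr1 and Cxcl13 passed the filter only through the H89-treated tumors. Among the 2 lower, Cxcl3 passed it only through the NaCl tumors. DESeq2's Wald test gave 10 of the 43 members for which it returned an adjusted p, 9 of them higher, against 10.4% of all genes (4.75% higher). The 9 higher by DESeq2 were Ccl2, Ccl5, Ccl11, Ccr2, Ccr9, Cxcl12, Cxcl13, Cxcr6 and Xcr1, and the lower one was Cxcl3.

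All 3 H89-treated tumors lay above all 3 NaCl tumors for 11 of the 42 members (26.2%), against 15.2% of all genes tested, and below them for 2 members (4.76%), against 15.5% of all genes. Together 13 of 42 members (31.0%) did not overlap, close to the 30.7% of all genes. Scaling by the total count alone, an alternative chosen after the data were seen, gave 12 members above and 1 below, and 2681 genes above and 1312 below in place of 1995 and 2030. The log2 fold change was above 0 for 32 of the 42 members (76.2%), against 50.6% of all genes, and the median over members was 0.27 beside 0.004 over all genes. Xcr1, Cxcl13 and Ccl28, counted in both the 11 and the 32, passed the filter only through the H89-treated tumors. So did Ccr10, counted in the 32. Cxcl3, among the 2 below, passed it only through the NaCl tumors. The filter thus favoured the direction of each of these genes. Among receptors 13 of 14 had a log2 fold change above 0, with a median of 0.46, which was 0.24 under quantile normalization with 12 of 14 above 0. Among chemokines 19 of 28 were above 0, with a median of 0.22, and this direction turned under quantile normalization, where 13 of 28 were above 0 and the median was -0.04. The quantile setting also added 0.5 CPM before the logarithm, so its values do not reflect normalization alone. The summed level of the 60 members was 1115, 1083 and 920.1 CPM in the NaCl tumors and 1273, 1169 and 1297 CPM in the H89-treated tumors.

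**Figure D1:**
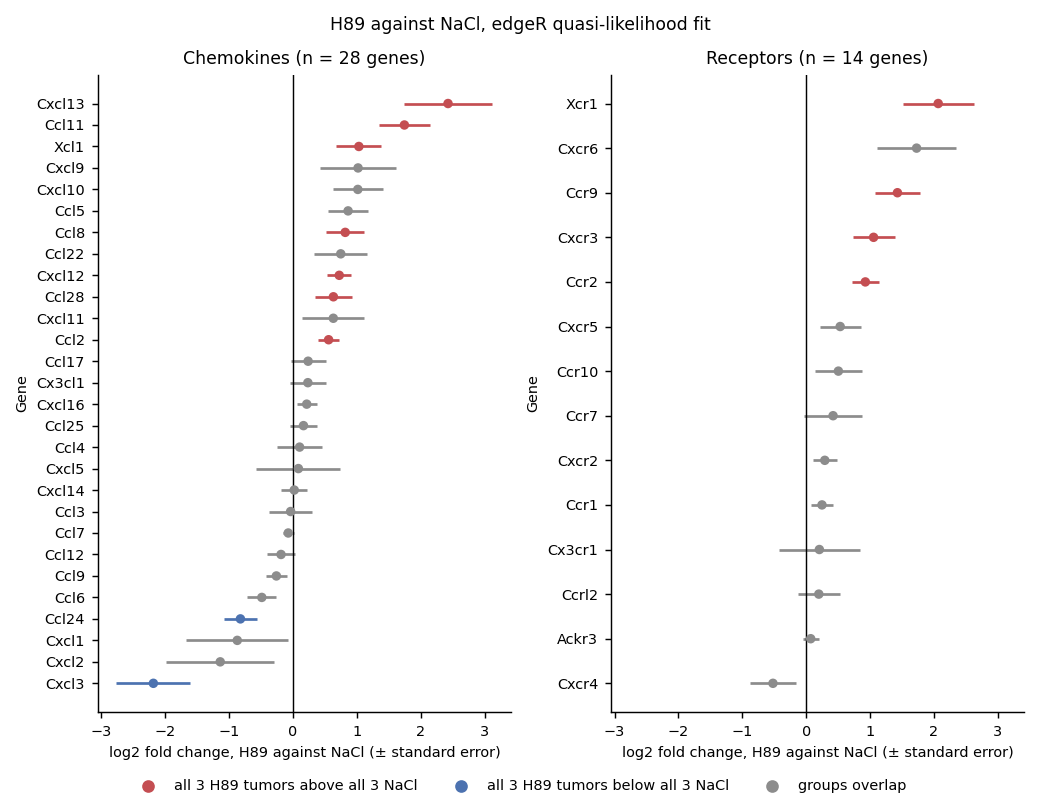
Log2 fold change of H89-treated against NaCl tumors for the 28 chemokines (left) and 14 receptors (right) that passed the filter, from edgeR's quasi-likelihood fit with bars of 1 standard error either side. Red marks the 11 genes with all 3 H89-treated tumors above all 3 NaCl tumors, blue the 2 with all below, and grey the 29 whose groups overlap.

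Single tumors shaped many of these profiles. NaCl tumor 3 had the lowest of the 6 values for 18 of the 42 members, and the highest value was in H89-treated tumor 1 for 14 members and in H89-treated tumor 3 for another 13. H89-treated tumor 2 was the highest for 4 members and the lowest for 7. The heat map by tumor shows this as a dark blue block for the CXCR3 ligands in NaCl tumor 3.

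**Figure D2:**
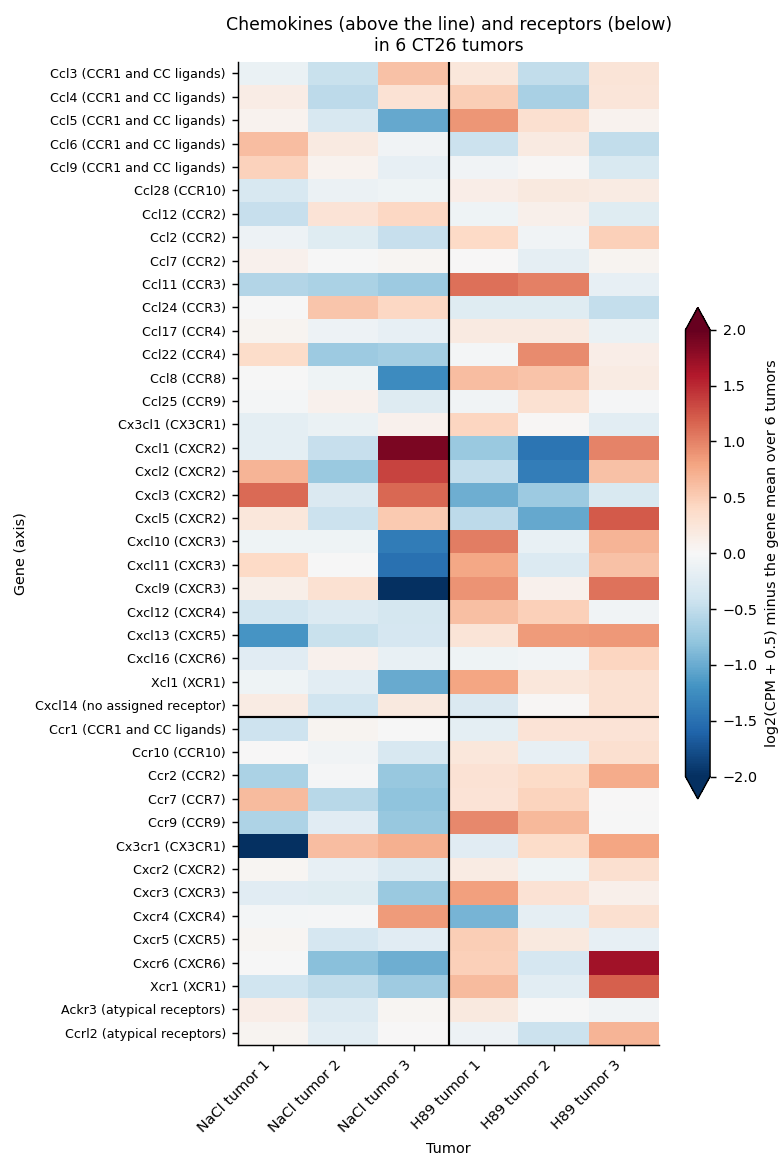
Level of each of the 42 members that passed the filter in each of the 6 tumors, as log2(CPM + 0.5) minus the gene's mean over the 6 tumors, with the colour scale ending at 2 either side. Chemokines stand above the horizontal line and receptors below it, ordered by receptor axis, and the NaCl tumor 3 column is blue across Cxcl9, Cxcl10 and Cxcl11.

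The most abundant members per length of transcript were the monocyte-attracting and related CC chemokines. Per kilobase of annotated exon, Ccl8 stood at a mean of 178 (94.3 to 226) CPM in the 3 NaCl tumors (range in parentheses) and 314 (255 to 349.8) in the H89-treated tumors. Ccl12 stood at 140.1 (93.0 to 171) and 123 (109 to 138) CPM per kilobase, and Ccl2 at 112 (97.7 to 125) and 165 (129 to 189). The ranges of these 3 genes overlapped in NaCl tumors, and the range of Ccl8 lay above the other ranges in H89-treated tumors. Ccl6 and Ccl7 followed at 90.4 and 82.0 CPM per kilobase in NaCl and 64.4 and 77.9 in H89-treated tumors. Of the receptors, the scavenger receptor Ackr3 was the most abundant per length, at 14.97 (12.6 to 16.7) and 15.7 (14.5 to 17.5) CPM per kilobase, and Ccr1 was next at 11.6 (9.32 to 12.9) and 13.7 (10.9 to 15.1), with overlapping ranges.

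The CCR2 axis, which draws monocytes out of the blood, held the receptor with the smallest p. Ccr2 (chr9:124101950-124113557 in GRCm38, annotation GENCODE M21, as for all genes here) was measured at 25.9, 39.8 and 23.8 CPM in NaCl tumors 1 to 3 and 49.6, 52.7 and 67.8 CPM in H89-treated tumors 1 to 3. All 3 H89-treated tumors lay above every NaCl tumor, and the means were 29.8 ± 8.70 and 56.7 ± 9.74 CPM (SD, n = 3 each), a ratio of 1.90. The log2 fold change of Ccr2 was 0.93 ± 0.21 (SE, adjusted p = 0.0662 by edgeR with Benjamini-Hochberg), and the exact two-sided permutation test gave p = 0.1, the smallest that 3 tumors against 3 allow. DESeq2 gave a Benjamini-Hochberg adjusted p of 0.000608, and edgeR without the filter on low genes gave 0.0497.

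Of the 3 CCR2 ligands, Ccl2 was higher and Ccl7 and Ccl12 were not. Ccl2 (MCP-1, chr11:82035571-82037453) had 142, 129 and 111 CPM in NaCl tumors 1 to 3 and 202, 146 and 215 CPM in H89-treated tumors 1 to 3. The groups did not overlap, although H89-treated tumor 2 lay close to NaCl tumor 1, and the log2 fold change was 0.56 ± 0.16 (SE, adjusted p = 0.0959 by edgeR with Benjamini-Hochberg). Ccl7 (MCP-3), which lies beside Ccl2 on chromosome 11, had 68.0, 63.2 and 65.8 CPM in NaCl and 64.2, 56.2 and 66.7 CPM in H89-treated tumors. These values overlapped, with a log2 fold change of -0.075 ± 0.090 (SE, adjusted p = 0.635 by edgeR with Benjamini-Hochberg). Ccl12 (MCP-5) had 49.96, 83.9 and 91.9 CPM in NaCl and 65.5, 74.2 and 58.5 CPM in H89-treated tumors, where the range of the H89-treated tumors lay within that of the NaCl tumors, and its log2 fold change was -0.19 ± 0.21 (SE, Benjamini-Hochberg adjusted p = 0.613 in edgeR). Within each tumor, the ratio of Ccl2 to Ccl7 was 2.09, 2.04 and 1.69 in NaCl and 3.15, 2.60 and 3.22 in H89-treated tumors, so that the neighbours were not in the same proportion in the 2 groups.

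**Figure D3:**
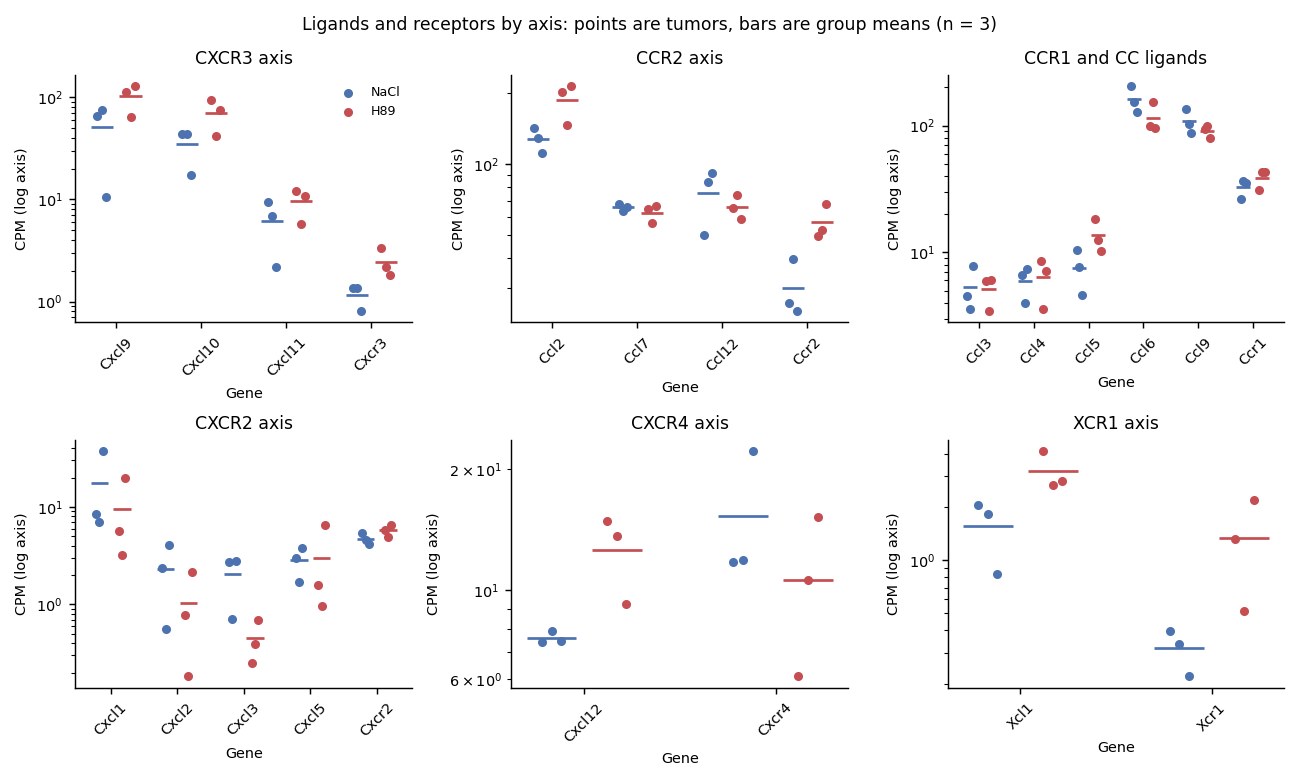
CPM in each tumor, on log axes, of the members that passed the filter in 6 receptor axes, with NaCl tumors in blue, H89-treated tumors in red and horizontal bars at the group means (n = 3 each). The H89-treated points of Ccl2, Ccr2, Cxcr3, Cxcl12, Xcl1 and Xcr1 all lie above the NaCl points, those of Cxcl3 all lie below, and the groups of the other genes shown overlap.

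Among CCR1, which serves monocytes, macrophages and neutrophils, and the inflammatory CC ligands grouped with it, Ccl5 had a higher mean and Ccl6 and Ccl9 lower means. Ccr1, a receptor of monocytes and neutrophils, had 26.4, 36.7 and 35.3 CPM in NaCl and 30.9, 42.9 and 42.9 CPM in H89-treated tumors. Its groups overlapped, and its log2 fold change was 0.25 ± 0.17 (SE, adjusted p = 0.395 by edgeR with Benjamini-Hochberg).

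Ccl5 (RANTES), made by T cells, natural killer cells and interferon-stimulated cells, had 10.4, 7.72 and 4.57 CPM in NaCl tumors 1 to 3 and 18.5, 12.4 and 10.3 CPM in H89-treated tumors 1 to 3. The lowest H89-treated tumor lay just under the highest NaCl tumor, and the log2 fold change was 0.86 ± 0.32 (SE, adjusted p = 0.153 by edgeR with Benjamini-Hochberg). Ccl6, a macrophage chemokine of rodents, went the other way, with 206, 153 and 128 CPM in NaCl and 99.5, 152 and 94.9 CPM in H89-treated tumors and a log2 fold change of -0.49 ± 0.23 (SE, adjusted p = 0.223 by edgeR with Benjamini-Hochberg). H89-treated tumors 1 and 3 lay under every NaCl tumor, and H89-treated tumor 2 lay among them. Ccl9, its neighbour on chromosome 11, had 135, 104 and 87.5 CPM in NaCl and 93.3, 99.9 and 79.2 CPM in H89-treated tumors, with overlap. Ccl3 and Ccl4, the macrophage inflammatory proteins 1-alpha and 1-beta, had log2 fold changes of -0.037 and 0.10 and SEs of 0.34 and 0.35. Ccl3 stood at 4.53, 3.54 and 7.82 CPM in NaCl and 5.99, 3.43 and 6.08 CPM in H89-treated tumors, and Ccl4 at 6.62, 3.99 and 7.35 and 8.59, 3.59 and 7.14 CPM. In both genes the ranges of the groups overlapped almost wholly.

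The leukocyte gene Ptprc (CD45) had 25.2, 31.5 and 29.9 CPM in NaCl and 48.2, 47.2 and 78.8 CPM in H89-treated tumors, which gave a log2 fold change of 1.01 ± 0.21 (SE, Benjamini-Hochberg adjusted p = 0.0547 in edgeR). Set against Ptprc within each tumor, Ccr2 gave ratios of 1.03, 1.27 and 0.798 in NaCl and 1.03, 1.12 and 0.861 in H89-treated tumors, which overlapped. Ratios of Ccr1 to Ptprc did not overlap, with 1.05, 1.16 and 1.18 in NaCl and the lower 0.642, 0.910 and 0.544 in H89-treated tumors. Against Csf1r, a receptor of monocytes and macrophages, the ratios of Ccr2 were 0.252, 0.199 and 0.119 in NaCl and 0.322, 0.290 and 0.326 in H89-treated tumors, higher in each treated tumor than in any control, so that the comparison depended on the marker. Ptprc had the largest log2 fold change of 5 markers of all leukocytes, beside 0.97 for Cd52, 0.33 for Coro1a, 0.050 for Cd53 and -0.028 for Laptm5. The part of leukocyte number in these receptor levels was not tested.

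The CXCR3 axis links interferon-gamma to the recruitment of activated T and natural killer cells, and its 3 ligands and its receptor all had higher means in H89-treated tumors. Cxcr3 (chrX:101731535-101734269) was measured at 1.37, 1.34 and 0.804 CPM in NaCl tumors 1 to 3 and 3.35, 2.16 and 1.82 CPM in H89-treated tumors 1 to 3. All H89-treated tumors were above all NaCl tumors, and the log2 fold change was 1.06 ± 0.33 (SE, Benjamini-Hochberg adjusted p = 0.11 in edgeR). Cxcl9 (chr5:92321347-92328079), which is induced by interferon-gamma, had 65.9, 75.4 and 10.6 CPM in NaCl and 114, 64.6 and 129 CPM in H89-treated tumors. NaCl tumor 3 was far below the rest, H89-treated tumor 2 lay under both other NaCl tumors, and the log2 fold change of Cxcl9 was 1.02 ± 0.60 (SE, Benjamini-Hochberg adjusted p = 0.324 in edgeR). Cxcl10 (chr5:92346638-92348889), induced by type I and type II interferons, had 43.3, 43.5 and 17.2 CPM in NaCl and 94.3, 41.6 and 74.3 CPM in H89-treated tumors, with a log2 fold change of 1.01 ± 0.39 (SE, adjusted p = 0.165 by edgeR with Benjamini-Hochberg). Cxcl11 (chr5:92359544-92365485) had 9.35, 6.94 and 2.16 CPM in NaCl and 12.2, 5.68 and 10.7 CPM in H89-treated tumors, with a log2 fold change of 0.63 ± 0.49 (SE, adjusted p = 0.45 by edgeR with Benjamini-Hochberg).

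The 3 ligands kept 1 profile over the tumors, low in NaCl tumor 3 and at the NaCl level in H89-treated tumor 2, and in each the groups overlapped. Their summed level was 119, 126 and 30.0 CPM in NaCl and 220.3, 112 and 215 CPM in H89-treated tumors. Without NaCl tumor 3 the log2 fold changes were 0.54 for Cxcl9, 0.69 for Cxcl10 and 0.23 for Cxcl11, while that of Cxcr3 was 0.85. Ifng, the gene of interferon-gamma and no member, which was singled out after its values were seen, had 1.04, 0.671 and 0.0731 CPM in NaCl tumors 1 to 3 and 1.82, 0.578 and 2.31 CPM in H89-treated tumors 1 to 3. It was lowest in the same NaCl tumor 3, where its level lay under the 0.11 CPM that 3 counts would give. For Ifng, H89-treated tumor 2 was again inside the NaCl range, and its part in the level of the 3 ligands was not tested.

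Promoter sequence is shown for Cxcl9 and Cxcl10 because the 2 neighbours on chromosome 5 had nearly the same log2 fold change. The 250 bases before the start of each gene are taken from RefSeq on GRCm38.p6, the C57BL/6J reference and not the BALB/c genome of these tumors, and run 5′ to 3′ along the gene's strand. The Cxcl9 window is chr5:92328080-92328329 on the minus strand and the Cxcl10 window chr5:92348890-92349139 on the minus strand. Both strands were searched for the interferon-stimulated response element core GAAANNGAA, the gamma-activated site TTCNNNGAA, the kappa B core GGGANNTTC and the cyclic AMP response element TGACGTCA, and capitals mark the matches.
Cxcl9: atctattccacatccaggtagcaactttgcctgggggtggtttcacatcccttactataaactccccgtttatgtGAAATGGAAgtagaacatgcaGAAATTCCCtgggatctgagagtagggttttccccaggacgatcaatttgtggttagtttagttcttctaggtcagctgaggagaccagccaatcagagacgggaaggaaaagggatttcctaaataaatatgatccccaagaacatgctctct
Cxcl10: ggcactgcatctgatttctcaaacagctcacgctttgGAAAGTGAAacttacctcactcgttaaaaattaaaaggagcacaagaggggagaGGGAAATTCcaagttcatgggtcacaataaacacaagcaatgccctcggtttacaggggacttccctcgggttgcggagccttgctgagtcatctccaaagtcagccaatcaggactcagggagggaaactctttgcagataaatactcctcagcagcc
Cxcl9 held 1 match to the interferon-stimulated core, which starts 175 bases before the gene, and 1 to the kappa B core, 154 bases before it. Cxcl10 held the same pair of matches, 213 and 159 bases before the gene. Neither window held a match to the gamma-activated site or the cyclic AMP element, which says only that these letters are not in the window. Over the 32851 mouse promoter windows, 7.13% held the interferon-stimulated core, 7.02% the gamma-activated site, 3.23% the kappa B core and 1.55% the cyclic AMP element. Of the 30 tested members with a window in the table, 5 held the interferon-stimulated core (Ccl3, Ccr2, Cxcl9, Cxcl10 and Cxcl14), 2 the gamma-activated site (Ccl17 and Cxcl14), 6 the kappa B core (Cxcl1, Cxcl2, Cxcl3, Cxcl9, Cxcl10 and Cxcr2) and 0 the cyclic AMP element. With 1 more letter at the 3′ end of the pattern, A for the interferon-stimulated core and C for the kappa B core, Cxcl9 had no match, and Cxcl10 and Cxcl14 kept the first and Cxcl1, Cxcl2, Cxcl3 and Cxcl10 the second, beside 2.98% and 1.21% of all windows. These matches describe the letters and are not measured binding sites.

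In the CXCR2 axis, which recruits neutrophils, 3 of the 4 tested ligands within the naming rule had lower means in H89-treated tumors. Ppbp (CXCL7), a CXCR2 ligand that the rule leaves out, had 1.80, 0.932 and 1.72 CPM in NaCl tumors 1 to 3. In H89-treated tumors 1 to 3 it had 0.606, 0.821 and 0.760 CPM, under every NaCl tumor. The log2 fold change of Ppbp was -1.02 ± 0.32 (SE, Benjamini-Hochberg adjusted p = 0.116 in edgeR). Cxcl3 (chr5:90786103-90789600), a neutrophil chemokine, had 2.73, 0.708 and 2.78 CPM in NaCl tumors 1 to 3 and 0.250, 0.395 and 0.699 CPM in H89-treated tumors 1 to 3. All H89-treated tumors were under all NaCl tumors by a margin of less than 0.1 CPM between NaCl tumor 2 and H89-treated tumor 3, and with scaling by the total count alone these tumors overlapped. The means were 2.07 ± 1.18 and 0.448 ± 0.229 CPM (SD, n = 3 each), and the log2 fold change was -2.19 ± 0.58 (SE, Benjamini-Hochberg adjusted p = 0.0841 in edgeR), with a DESeq2 Benjamini-Hochberg adjusted p of 0.0061. Counts of Cxcl3 were low, 76, 19 and 76 in NaCl and 7, 13 and 23 in H89-treated tumors. Its H89 mean lay under 0.5 CPM, so Cxcl3 passed the filter only through the NaCl tumors, which favoured its direction.

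Cxcl1 (KC) had 8.49, 6.94 and 37.3 CPM in NaCl tumors 1 to 3 and 5.67, 3.22 and 19.9 CPM in H89-treated tumors 1 to 3. Tumor 3 of each group was several times above the others, the groups overlapped, and the log2 fold change was -0.87 ± 0.80 (SE, Benjamini-Hochberg adjusted p = 0.529 in edgeR). This value turned to 0.32 without NaCl tumor 3. Cxcl2 (MIP-2) had 2.34, 0.559 and 4.02 CPM in NaCl and 0.784, 0.182 and 2.16 CPM in H89-treated tumors, which gave a log2 fold change of -1.14 ± 0.85 (SE, Benjamini-Hochberg adjusted p = 0.432 in edgeR). Its tumor 3 was also the highest of each group, and without H89-treated tumor 3 the log2 fold change was -2.28, without NaCl tumor 3 -0.47. Cxcl5 (LIX) ranged from 1.72 to 3.80 CPM in NaCl and from 0.973 to 6.45 CPM in H89-treated tumors, with a log2 fold change of 0.084 (SE 0.66) that took the other sign in several alternatives. The receptor Cxcr2 had 5.36, 4.55 and 4.20 CPM in NaCl and 5.85, 4.86 and 6.57 CPM in H89-treated tumors, overlapping, with a log2 fold change of 0.29 ± 0.18 (SE, Benjamini-Hochberg adjusted p = 0.358 in edgeR). Among 8 neutrophil markers, Ly6g was at 0 in every tumor, 3 passed the filter, of which 1 was higher and 2 lower, and the summed level was 11.01 to 16.4 CPM in NaCl and 15.6 to 28.3 CPM in H89-treated tumors, carried mostly by the receptor gene Csf3r. The part of neutrophils in the level of these ligands was not tested.

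The promoters of Cxcl1, Cxcl2 and Cxcl3 are shown for the letters they share. Each is the 250 bases before the gene in the same RefSeq table and build, 5′ to 3′, chr5:90890995-90891244 on the plus strand for Cxcl1, chr5:90903649-90903898 on the plus strand for Cxcl2 and chr5:90785851-90786100 on the plus strand for Cxcl3.
Cxcl1: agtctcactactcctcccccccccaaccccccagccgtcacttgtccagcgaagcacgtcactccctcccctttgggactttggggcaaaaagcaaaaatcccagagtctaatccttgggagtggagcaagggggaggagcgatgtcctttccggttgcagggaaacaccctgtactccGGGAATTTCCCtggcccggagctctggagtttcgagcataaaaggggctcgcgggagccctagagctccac
Cxcl2: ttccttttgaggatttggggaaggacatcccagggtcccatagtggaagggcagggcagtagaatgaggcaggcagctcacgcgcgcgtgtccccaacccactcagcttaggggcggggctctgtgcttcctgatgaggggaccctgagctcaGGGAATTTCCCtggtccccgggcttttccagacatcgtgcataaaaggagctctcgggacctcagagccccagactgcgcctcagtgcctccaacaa
Cxcl3: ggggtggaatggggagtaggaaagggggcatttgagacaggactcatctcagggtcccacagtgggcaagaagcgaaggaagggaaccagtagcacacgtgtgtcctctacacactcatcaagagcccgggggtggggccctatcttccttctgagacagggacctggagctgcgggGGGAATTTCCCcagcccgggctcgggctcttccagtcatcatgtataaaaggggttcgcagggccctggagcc
The capitals mark matches to the kappa B core GGGANNTTC on either strand, and in each promoter 2 matches on opposite strands overlap to form 1 run of 11 letters. The same 11 letters stand in all 3 windows, starting 71, 97 and 73 bases before Cxcl1, Cxcl2 and Cxcl3. With Cxcl10 these are the 4 members that also matched the longer kappa B pattern. The 4 genes did not share a direction, since the log2 fold change was 1.01 for Cxcl10 and -2.19 for Cxcl3.

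The XCR1 axis joins lymphocytes that release XCL1 to the dendritic cells that present tumor antigen to CD8+ T cells, and ligand and receptor were both higher in every H89-treated tumor. Xcr1 (chr9:123852315-123862029) was measured at 0.396, 0.336 and 0.219 CPM in NaCl tumors 1 to 3 and 1.32, 0.517 and 2.19 CPM in H89-treated tumors 1 to 3. The groups did not overlap, H89-treated tumor 2 stood closest to the NaCl tumors, and the log2 fold change was 2.07 ± 0.56 (SE, adjusted p = 0.0869 by edgeR with Benjamini-Hochberg). These levels rested on 11, 9 and 6 counts in NaCl and 37, 17 and 72 counts in H89-treated tumors. Under limma with quantile normalization, which also added 0.5 CPM before the logarithm, the log2 fold change of Xcr1 was 0.82. The part of each step in that lower value was not tested. The NaCl mean of Xcr1 lay under 0.5 CPM. Xcr1 thus passed the filter only through the H89-treated tumors, which favoured its direction. Xcl1 (chr1:164931644-164935527) had 2.05, 1.83 and 0.841 CPM in NaCl and 4.17, 2.67 and 2.83 CPM in H89-treated tumors, which gave a log2 fold change of 1.03 ± 0.35 (SE, adjusted p = 0.133 by edgeR with Benjamini-Hochberg). NaCl tumor 3 was again the lowest, and exons of Xcl1 overlap Gm20743 on the other strand, with which reads could be shared. Clec9a, a marker of the same dendritic cells, had 0.468, 0.671 and 0.804 CPM in NaCl and 0.998, 1.00 and 1.82 CPM in H89-treated tumors, and the ratio of Xcr1 to Clec9a overlapped between the groups, at 0.846, 0.5 and 0.273 in NaCl and 1.32, 0.515 and 1.2 in H89-treated tumors.

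Cxcr6, a receptor of tissue-resident and effector T cells, had one of the largest log2 fold changes and rested mainly on H89-treated tumor 3. It stood at 1.91, 0.858 and 0.731 CPM in NaCl tumors 1 to 3 and 2.89, 1.43 and 7.30 CPM in H89-treated tumors 1 to 3. H89-treated tumor 2 lay under NaCl tumor 1, and the log2 fold change was 1.73 ± 0.62 (SE, Benjamini-Hochberg adjusted p = 0.146 in edgeR), or 0.88 without H89-treated tumor 3. The T cell gene Cd3e had 3.78, 1.75 and 1.24 CPM in NaCl and 4.71, 2.40 and 8.15 CPM in H89-treated tumors, and the ratio of Cxcr6 to Cd3e was 0.505, 0.489 and 0.588 in NaCl and 0.614, 0.595 and 0.896 in H89-treated tumors. These ratios were higher in every H89-treated tumor, the lowest by a margin of less than 0.01. The ratio of Cxcr3 to Cd3e overlapped, at 0.362, 0.766 and 0.647 in NaCl and 0.712, 0.899 and 0.224 in H89-treated tumors, and H89-treated tumor 3 was the lowest of all 6. Cxcl16, the membrane-bound ligand of CXCR6 on macrophages and dendritic cells, had 51.2, 63.8 and 54.3 CPM in NaCl and 57.0, 58.2 and 81.2 CPM in H89-treated tumors, with overlap and a log2 fold change of 0.21 ± 0.15 (SE, adjusted p = 0.418 by edgeR with Benjamini-Hochberg).

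Among the chemokines of lymphoid tissue and stroma, Cxcl12 and Cxcl13 were higher. Cxcl12 (chr6:117168535-117181367), a product of fibroblasts and endothelium that retains cells bearing CXCR4, had 7.45, 7.90 and 7.49 CPM in NaCl tumors 1 to 3 and 14.9, 13.6 and 9.21 CPM in H89-treated tumors 1 to 3. The NaCl tumors were nearly alike, every H89-treated tumor lay above them, and the log2 fold change was 0.72 ± 0.19 (SE, adjusted p = 0.0839 by edgeR with Benjamini-Hochberg). Its receptor Cxcr4 went the other way, with 11.7, 11.9 and 22.2 CPM in NaCl and 6.10, 10.6 and 15.2 CPM in H89-treated tumors. These overlapped, and the log2 fold change of -0.52 ± 0.36 (SE, Benjamini-Hochberg adjusted p = 0.402 in edgeR) was -0.15 without NaCl tumor 3. Cxcr4 was the single receptor of 14 with a log2 fold change under 0 in edgeR's fit.

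Cxcl13 (chr5:95956951-95961068), the B cell attractant that follicular stroma and some T cells make, was rare. It stood at 0, 0.336 and 0.402 CPM in NaCl and 0.856, 1.55 and 1.58 CPM in H89-treated tumors, which are 0, 9 and 11 and 24, 51 and 52 counts. The groups did not overlap, and the log2 fold change was 2.43 ± 0.70 (SE, adjusted p = 0.0964 by edgeR with Benjamini-Hochberg). With an NaCl mean under 0.5 CPM, Cxcl13 passed the filter only through the H89-treated tumors, which favoured its direction. Its receptor Cxcr5 had 1.12, 0.746 and 0.841 CPM in NaCl and 1.71, 1.31 and 0.912 CPM in H89-treated tumors, with overlap and a log2 fold change of 0.53 ± 0.32 (SE, Benjamini-Hochberg adjusted p = 0.332 in edgeR). Of 5 B cell markers 2 passed the filter, both with a log2 fold change above 0, and the summed level was 1.40 to 1.86 CPM in NaCl and 2.32 to 3.43 CPM in H89-treated tumors. Ccr7, the receptor of naive T cells and migrating dendritic cells, had 3.70, 1.34 and 1.06 CPM in NaCl and 2.78, 3.19 and 2.22 CPM in H89-treated tumors, and NaCl tumor 1 was the highest of all 6 tumors. Its log2 fold change of 0.42 ± 0.45 (SE, adjusted p = 0.595 by edgeR with Benjamini-Hochberg) was 1.18 without NaCl tumor 1. Both ligands of CCR7 in the table, Ccl19 and Ccl21a, were at 0 in all 6 tumors, where 3 counts would be 0.0912 to 0.112 CPM. Ccl21a has near-identical copies in the mouse genome, so its count is uncertain.

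Ccr9, the gut-homing receptor, had 0.935, 1.38 and 0.804 CPM in NaCl and 3.78, 2.95 and 1.70 CPM in H89-treated tumors, without overlap. Its ligand Ccl25 had 3.42, 3.80 and 2.89 CPM in NaCl and 3.35, 4.47 and 3.50 CPM in H89-treated tumors, overlapping, with a log2 fold change of 0.16 ± 0.21 (SE, Benjamini-Hochberg adjusted p = 0.65 in edgeR). Exons of both genes overlap other annotated genes, Gm17200, AC165425.1 and Slc6a20a for Ccr9 and Elavl1 for Ccl25.

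The eotaxins of the CCR3 axis, which attract eosinophils, differed in direction. Ccl11 (eotaxin-1, chr11:82057823-82062955) had 1.22, 1.16 and 1.06 CPM in NaCl tumors 1 to 3 and 5.06, 4.71 and 1.79 CPM in H89-treated tumors 1 to 3. The NaCl tumors were nearly alike, H89-treated tumors 1 and 2 stood several times above them, H89-treated tumor 3 was closer, and the log2 fold change was 1.74 ± 0.39 (SE, Benjamini-Hochberg adjusted p = 0.0669 in edgeR). Without H89-treated tumor 3 the log2 fold change of Ccl11 was 2.09 with an edgeR Benjamini-Hochberg adjusted p of 0.0452. With any other single tumor left out, that adjusted p lay between 0.0969 and 0.178. Over all 6 tumors DESeq2 gave a Benjamini-Hochberg adjusted p of 0.00138. Ccl24 (eotaxin-2, chr5:135569937-135573049) had 1.91, 3.06 and 2.70 CPM in NaCl and 1.53, 1.55 and 1.25 CPM in H89-treated tumors. Here every H89-treated tumor was under every NaCl tumor, and the log2 fold change was -0.82 ± 0.26 (SE, Benjamini-Hochberg adjusted p = 0.11 in edgeR). Their receptor Ccr3 lay under the filter, with 2 to 9 counts per tumor. Of 7 eosinophil and mast cell markers 3 passed the filter, all mast cell genes and all with a log2 fold change under 0, and the summed level was 56.2 to 167 CPM in NaCl and 57.4 to 97.1 CPM in H89-treated tumors. The sum of 167 CPM was that of NaCl tumor 1, where all 3 genes were highest, beside 59.3 and 56.2 CPM in NaCl tumors 2 and 3.

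Ccl8 (chr11:82115185-82116799), a macrophage product that in the mouse acts on CCR8, had 115, 109 and 48.2 CPM in NaCl tumors 1 to 3 and 179, 172 and 130.1 CPM in H89-treated tumors 1 to 3. The groups did not overlap, NaCl tumor 3 was the lowest, and the log2 fold change of 0.82 ± 0.30 (SE, adjusted p = 0.152 by edgeR with Benjamini-Hochberg) was 0.51 without that tumor. Ccr8, a receptor of regulatory T cells, lay under the filter, with 15, 4 and 0 counts in NaCl and 17, 8 and 21 counts in H89-treated tumors. Ccl22 and Ccl17, the ligands of CCR4, had log2 fold changes of 0.75 and 0.24 and SEs of 0.42 and 0.27. Ccl22, a dendritic cell product, stood at 5.29, 2.20 and 2.30 CPM in NaCl and 3.85, 8.15 and 4.44 CPM in H89-treated tumors, with NaCl tumor 1 above H89-treated tumors 1 and 3. The epithelial chemokine Ccl28 was low at 0.360, 0.485 and 0.512 CPM in NaCl and 0.677, 0.729 and 0.699 CPM in H89-treated tumors, without overlap, with a log2 fold change of 0.63 ± 0.29 (SE, Benjamini-Hochberg adjusted p = 0.222 in edgeR), and its receptor Ccr10 overlapped between the groups at 0.329 to 0.540 and 0.426 to 0.790 CPM. Both genes had NaCl means under 0.5 CPM and passed the filter only through the H89-treated tumors, which favoured their direction.

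The remaining members differed by less than their spread between tumors. Cx3cr1, a receptor of macrophages and patrolling monocytes, had 5.50, 43.7 and 46.5 CPM in NaCl and 24.2, 36.6 and 49.4 CPM in H89-treated tumors. NaCl tumor 1 lay far under every other tumor, and without it the log2 fold change went from 0.21 to -0.29. Its ligand Cx3cl1 had log2 fold change 0.23 (SE 0.28). The atypical receptor Ackr3, which clears CXCL12, had 55.9, 42.2 and 52.3 CPM in NaCl and 58.8, 50.7 and 48.5 CPM in H89-treated tumors, which gave a log2 fold change of 0.071 ± 0.13 (SE, Benjamini-Hochberg adjusted p = 0.757 in edgeR). Ccrl2, which binds chemerin, had a log2 fold change of 0.20 (SE 0.33), and Cxcl14, a chemokine of epithelium and fibroblasts, one of 0.019 (SE 0.21). Among the members above, exons of Cxcl10, Cxcl11, Cxcl16, Cxcr5 and Cx3cr1 also overlap a gene on the other strand (Art3, Gm2673, Zmynd15, Bcl9l and Gm33858), and reads of such pairs could be shared if the counting ignored strand.

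The 18 members under the filter had at most 22 counts in any tumor and gave no test. Ccl19, Ccl21a, Ccl26 and Ccl27b were at 0 in all 6 tumors. Ccr6, a receptor of Th17 and B cells, had 0, 0 and 0 counts in NaCl and 3, 6 and 3 counts in H89-treated tumors, and its ligand Ccl20 at most 1 count in any tumor. The groups did not overlap for Ccr6, but such counts lie near the 3 that a count of 0 allows, and no test was made. The others were Ackr1, Ackr2, Ackr4, Ccl1, Ccl27a, Ccr1l1, Ccr3, Ccr4, Ccr8, Cxcl15, Cxcl17 and Cxcr1.

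Many members lie in clusters of neighbouring genes, and the clusters were not uniform. The receptor cluster on chromosome 9 was followed over 435 kb from 123678439 to 124113557, with Ccr9, Cxcr6, Xcr1, Ccr1, Ccr1l1, Ccr3 and Ccr2. The 5 of these that passed the filter had log2 fold changes above 0, from 0.25 to 2.07, beside 50.6% of all genes tested. For 3 of them all H89-treated tumors lay above all NaCl tumors, beside 15.2% of all genes tested. Of these, Xcr1 passed the filter only through the H89-treated tumors. On chromosome 11 from 82035571 to 82305690, Ccl2, Ccl11 and Ccl8 were above the NaCl range in every H89-treated tumor, while the interposed Ccl7 and Ccl12 were not. In the other chromosome 11 cluster, from 83525778 to 83664683, Ccl5 and Ccl4 had log2 fold changes above 0, and Ccl9, Ccl6 and Ccl3 had log2 fold changes under 0. The chromosome 5 cluster from 90759360 to 90905938 held the lower Cxcl3, Cxcl1 and Cxcl2 beside Cxcl5, and the CXCR3 ligands lay on the same chromosome from 92321347 to 92365485. Genes side by side on chromosome 5 and chromosome 11 thus had log2 fold changes of either sign.

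**Figure D4:**
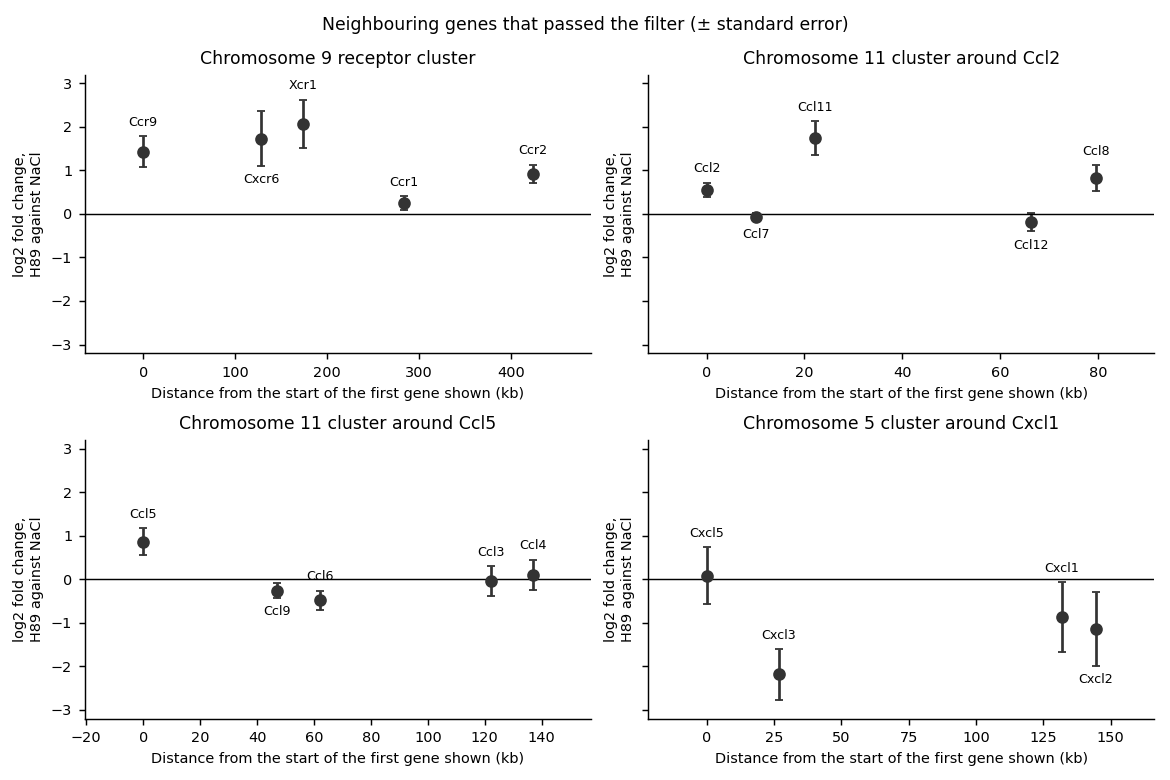
Log2 fold change of H89-treated against NaCl tumors (y axis, bars of 1 standard error either side) for neighbouring members that passed the filter, against the distance in kb from the start of the first gene shown. The 5 receptors on chromosome 9 lie above 0, whereas in the other 3 clusters members lie on both sides of 0.

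Cell marker lists were counted beside these results, since most members are expressed by particular cells. Over all genes tested, 50.6% had a log2 fold change above 0. All 11 T cell markers in the table had log2 fold changes above 0, with a summed level of 19.5 to 45 CPM in NaCl and 39.0 to 98.3 CPM in H89-treated tumors. All 4 regulatory T cell markers were above 0 as well, at 3.44 to 13.2 CPM in NaCl and 10.7 to 12.5 CPM in H89-treated tumors. Of these, Il2ra was nearly unchanged, with a log2 fold change of 0.0087 (SE 0.49). The 9 cytotoxic lymphocyte markers were also all above 0, with a summed level of 23.9 to 121 CPM in NaCl and 76.5 to 228 CPM in H89-treated tumors. For these lists the ranges of the groups overlapped. Of 5 markers of all leukocytes 4 were above 0, at 376 to 463 CPM in NaCl and 402 to 582 CPM in H89-treated tumors. Of 11 monocyte and macrophage markers 9 were above 0, with a median log2 fold change of 0.10 and a summed level of 1377 to 2157 CPM in NaCl and 1743 to 2083 CPM in H89-treated tumors. NaCl tumor 1 had the lowest sum of the 6 tumors, and Adgre1, Csf1r, Fcgr1, Mrc1, C1qa, C1qb, C1qc and Mertk were lowest there. NaCl tumors 2 and 3 had sums of 2157 and 1931 CPM, so the count above 0 leaned on NaCl tumor 1. Among 7 conventional dendritic cell markers 5 passed the filter and 4 of these were above 0, with a summed level of 381 to 487 CPM in NaCl and 312 to 378 CPM in H89-treated tumors that came almost wholly from Fscn1, the 1 marker under 0. The 7 fibroblast markers were all above 0, at 2477 to 2708 CPM in NaCl and 2779.9 to 3565 CPM in H89-treated tumors in sum, and of 6 endothelial markers 2 were above and 4 under 0, at 84.2 to 143 CPM in NaCl and 71.3 to 109.6 CPM in H89-treated tumors. No marker of these lists passed the edgeR threshold with Benjamini-Hochberg adjustment, and their part in the chemokine and receptor levels was not tested.

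The machinery downstream of the receptors was counted over a list of 45 genes (such as G proteins, receptor kinases, arrestins, phosphoinositide 3-kinases, small GTPases and their activators, Src-family and Janus kinases, and regulators of G protein signalling). Of the 44 that passed the filter 29 had log2 fold changes above 0 and 15 under 0, 12 and 4 of them at an unadjusted p under 0.05, and 1 passed the adjusted threshold. Over all genes tested 50.6% were above 0, 13.1% were higher and 11.9% lower at that unadjusted p, and 1.59% passed the adjusted threshold. That 1 gene of the list was Grk3, a kinase that desensitizes chemokine receptors, which rose from 1.65, 1.79 and 1.83 CPM in NaCl to 4.31, 4.26 and 4.07 CPM in H89-treated tumors by a log2 fold change of 1.26 ± 0.18 (SE, adjusted p = 0.0407 by edgeR with Benjamini-Hochberg). Pik3cd, the leukocyte phosphoinositide 3-kinase subunit, had log2 fold change 0.43 (SE 0.13), and Gnai2, the G protein subunit that carries most chemokine signals, -0.34 (SE 0.10).

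Of 22 genes that induce or restrain chemokine transcription, 21 were tested, 13 with log2 fold changes above 0 and 8 under 0, 6 and 3 of them at an unadjusted p under 0.05, beside 13.1% and 11.9% of all genes. Irf3, a transcription factor of the antiviral response, fell from 20.8, 26.3 and 21.01 CPM in NaCl to 14.0, 13.4 and 11.6 CPM in H89-treated tumors, which gave a log2 fold change of -0.81 ± 0.14 (SE, adjusted p = 0.0427 by edgeR with Benjamini-Hochberg). With a tumor left out, at most 12 of the 13118 genes passed that threshold, and the edgeR Benjamini-Hochberg adjusted p was then 0.0663 to 0.142 for Grk3 and 0.0663 to 0.142 for Irf3, so that both calls rest on all 6 tumors. Irf9, a subunit of the interferon-stimulated complex, had log2 fold change 0.81 (SE 0.20), and Rela, the p65 subunit of NF-kappa B, -0.33 (SE 0.098). Of 20 genes that cleave, bind or present chemokines, or are chemokines outside the naming rule, 18 were tested, 6 above and 12 under 0 (50.6% of all genes were above), 1 and 4 of them at an unadjusted p under 0.05, again beside 13.1% and 11.9% of all genes. Dpp4, the peptidase that trims CXCL9, CXCL10 and CXCL12, had 0.683, 0.298 and 0.512 CPM in NaCl and 1.75, 0.942 and 1.37 CPM in H89-treated tumors, which gave a log2 fold change of 1.43 ± 0.38 (SE, adjusted p = 0.0861 by edgeR with Benjamini-Hochberg). The platelet chemokine gene Pf4 (CXCL4), which the naming rule leaves out, had 31.7, 19.1 and 25.3 CPM in NaCl and 10.5, 14.95 and 9.15 CPM in H89-treated tumors. All H89-treated tumors lay under all NaCl tumors, with a log2 fold change of -1.14 ± 0.24 (SE, Benjamini-Hochberg adjusted p = 0.0593 in edgeR), and neither Dpp4 nor Pf4 passed the threshold. The NaCl mean of Dpp4 lay just under 0.5 CPM. Dpp4 thus passed the filter only through the H89-treated tumors, which favoured its direction.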

How the data were processed

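Total RNA of 6 frozen CT26 tumors, 3 per group, had been sequenced by the authors on the BGISEQ-500 platform. The authors deposited 1 table of estimated counts per gene, listed by symbol and called TPM. It was read as unscaled estimated counts, because the sums per tumor (27067349 to 31958793) were not those of TPM and 58.6% to 61.4% of the nonzero values were whole to within 0.01. Kallisto, DESeq2 and the build GRCm38 are named in the submitters' processing notes with no role, and the strand setting of the counting is not given in the sources used here. 0 columns of per-sample values belonged to no sample of this series.

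Estimated counts were rounded, genes with a mean of at least 0.5 CPM (13118 of 23557) were kept, and edgeR 4.0.16 in R 4.3.3 (TMM, glmQLFit, glmQLFTest, treatment as the only term) gave log2 fold changes of H89 against NaCl with Benjamini-Hochberg adjustment over all genes tested. Standard errors (SE) were obtained by dividing the absolute log2 fold change by the square root of F. Exact two-sided permutation tests used mean log2(CPM + 0.5) over the 10 splits of 6 tumors. The alternatives were no filter, median ratio scaling, DESeq2 1.42.0, limma 3.58.1, a block for the replicate number, and leaving out single tumors. Limma was run with quantile normalization of log2(CPM + 0.5) without TMM, and on TMM-scaled CPM with pseudocounts of 0.1 and 1. Groups came from the labels. Positions and overlaps are from GENCODE M21 by symbol, promoters from RefSeq (46 of 60 members matched). The interferon-stimulated and kappa B patterns were shortened by 1 letter after a search with the longer ones.

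The members, the receptor axes, the marker and pathway lists and the tests were chosen with earlier results of these data known, and 1 gene that the naming rule picks is not reported here and enters no count of members. Per-tumor values are given for axes chosen for this work (CXCR3, CCR1 with its grouped ligands, CCR2, CCR9, CXCR2, CXCR4, CCR7, XCR1) and for the 5 members with the smallest p in each direction. In each pathway list up to 3 genes per direction with the smallest p could be named. Values of other members, of Ifng and of marker genes, and ratios to Ptprc, Csf1r, Cd3e or Clec9a, were added after values had been seen. Depth limits the members with few counts: 3 counts are 0.0912 to 0.112 CPM per tumor, which covers counting error only.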

Additional observations from a re-analysis of the deposited data

How the results depend on the processing

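With 3 tumors per group and few counts for many members, the adjusted calls depended on the test. Of 13118 genes, 208 passed edgeR's test (adjusted p under 0.05), against 1392 by DESeq2, 80 by limma with quantile normalization, 0 with the replicate block, and 0 to 12 with a tumor left out. Of the 42 members tested 0 passed, against 10 by DESeq2, 1 (Ccr2) with no filter, and 0 to 1 with a tumor left out, the 1 being Ccl11 without H89-treated tumor 3. Counts of members at an unadjusted p under 0.05 stayed between 12 and 18 of the members tested in all alternatives, beside 15. Under scaling by the total count alone, chosen after the data were seen, 1 member and 1312 genes lay under the NaCl range in every H89-treated tumor, in place of 2 and 2030.

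Deviations from the group mean of tumors with the same replicate number correlated at 0.16, 0.062 and -0.025 over genes, and NaCl tumor 3 correlated most with H89-treated tumor 2 (0.35). These deviations were taken within groups of 3 tumors and cannot decide whether the replicate numbers pair the tumors. With the block, 18 members were at an unadjusted p under 0.05.

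Over 42 members and 13 alternatives, 521 of 546 log2 fold changes kept their direction and 25, in 11 members, took the other one. Under quantile normalization these were Ccl17 (-0.065), Ccl25 (-0.050), Ccl4 (-0.081), Ccrl2 (-0.12), Cx3cl1 (-0.072), Cxcl14 (-0.021) and Cxcl5 (-0.42). Cxcl5 also turned in limma with pseudocounts of 0.1 (-0.30) and 1 (-0.15) and with the block (-0.27). With a tumor left out, the log2 fold change of Ackr3 ran from -0.040 to 0.16 (-0.015 without H89-treated tumor 1), that of Ccl3 from -0.26 to 0.35 (0.19 without H89-treated tumor 2), and that of Ccl4 from -0.16 to 0.39 (-0.12 without NaCl tumor 2). Likewise Ccrl2 ran from -0.26 to 0.44, Cx3cl1 from -0.017 to 0.40, Cx3cr1 from -0.29 to 0.58 (-0.068 without H89-treated tumor 3), Cxcl1 from -1.99 to 0.32, Cxcl14 from -0.15 to 0.16 (-0.14 without H89-treated tumor 3) and Cxcl5 from -1.16 to 0.51 (-0.17 without NaCl tumor 2). The cause of these turns was not tested beyond the tumor or setting named.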
